A study of Mus with 3 samples.

Results

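Semaphorins, their receptors the plexins and neuropilins, and the collapsin response mediator proteins (CRMPs) were examined in the mouse hippocampus. Members were taken by gene name, as every gene on the array whose name starts with Sema, Plxn or Dpysl, together with Nrp1, Nrp2 and Crmp1. This gave 36 of the 23756 named genes on the array, and 35 of them were measured, against 13208 measured genes in all. A gene counted as measured when a probe's score for signal over noise reached 2.6 on all 3 arrays, and its brightest such probe stood for it. Sema3d had its single probe below this score on every array, with signals of 32.1, 39.4 and 39.7 on NCO, ACO and ASO, and is given no difference. Sema3a, with scores of 3.39, 2.89 and 3.33, lay just inside the limit. The family was chosen by the measured differences of Plxna4 and Dpysl3, which earlier results of these data had placed among the genes farthest from 0 between ACO and NCO. Their values, and the counts they enter, are a description.

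Semaphorins are secreted or membrane-bound guidance proteins that steer growing axons and shape synapses. Plexins are their signalling receptors, and neuropilins are co-receptors that plexins of the A type need to bind most secreted, class 3 semaphorins. CRMPs are cytosolic, tubulin-binding proteins that act inside the axon downstream of semaphorin signals and are regulated by the kinases Cdk5 and Gsk3b. In the hippocampus these proteins are known for laying out the mossy fibre and entorhinal pathways, for pruning axons and for setting the number of dendritic spines.

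Male Slc:ddY mice, an outbred stock, aged 6 weeks, formed 3 groups of 10. The normal control group (NCO) received distilled water by mouth for 15 days and 5 µL of distilled water on day 8. The peptide control group (ACO) received the same oral water and, on day 8, 5 µL with 10 nmol of Aβ25-35, a toxic fragment of the amyloid β peptide, into the cerebral ventricles. Mice of the third group (ASO) had the same peptide injection and were dosed by mouth with shochu oil, the oil components of a sweet potato spirit, at 2000 mg/kg/day for 15 days. Hippocampi were taken after a Y-maze test on day 16. The labels do not give the route of the water in NCO, so effects of an injection into the ventricles and of the peptide cannot be told apart here. The protocol text in 1 place gives the second injected group a name that no sample carries, and ASO was taken as that group from its own treatment label.

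The mice of a group were combined by twos into 5 sets and the sets into 1 pool, which was hybridised as a Cy3 target to 1 array of a common slide. There was thus 1 array per group, no replicate and no test, and the number of arrays limits the precision. The arrays had 50.9% to 53.7% of their 39429 gene probes above the score limit. Markers of the labelled tissue were measured in full, with 4 of 4 for dentate granule cells, 3 of 3 for CA1 and 3 of 3 for CA3. Signals below are background-corrected intensities scaled to the 75th percentile of each array, in arbitrary units. They are compared between arrays for the same probe. Probes differ in brightness, so a level does not rank genes by their RNA, and a summed signal of a list is carried by its brightest probes. Differences are log2 values of the first array minus the second, after adding 50, which draws dim probes towards 0. All 35 members rested on a single spot per array. As a measure of spot error, probes printed at 10 spots had a median SD of the difference over those spots of 0.11 to 0.13 at signals below 200, 0.09 to 0.10 at 200 to 1000 and 0.07 to 0.09 above 1000. This error holds no spread between mice or pools. A difference of at least 1.2-fold (0.26 on the log2 scale) is used as a rule of size, with the share of all measured genes past it given beside the count. The 3 comparisons share arrays and are not independent of each other.

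**Figure D1:**
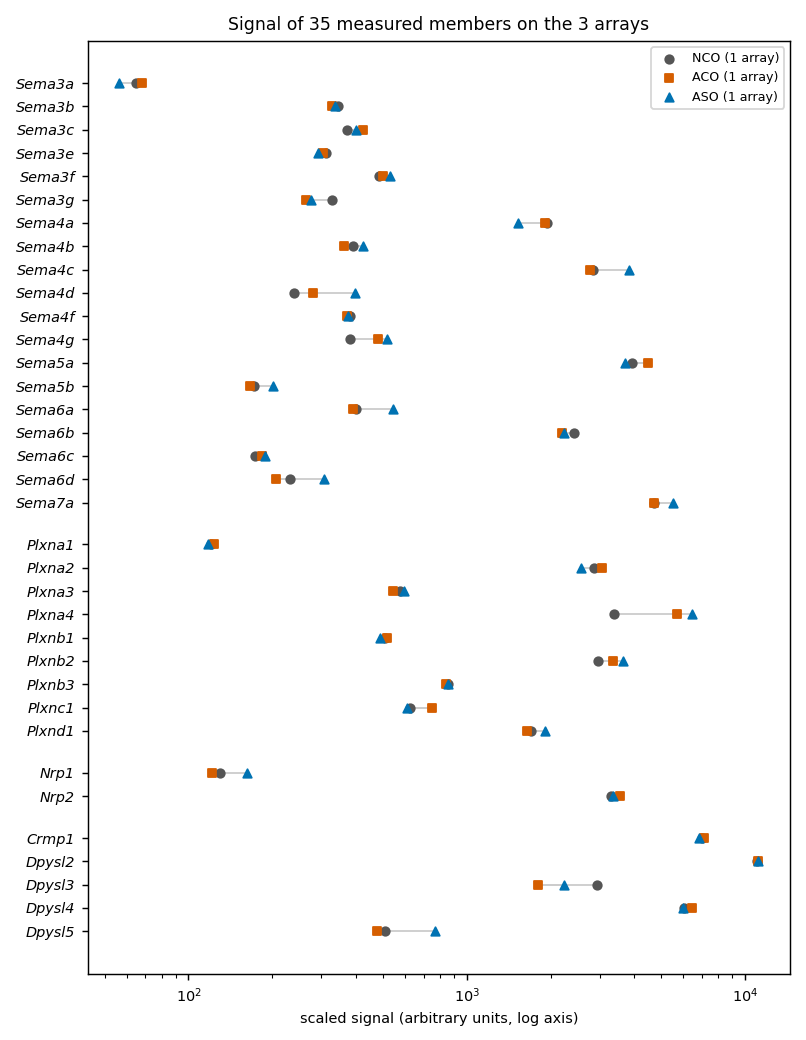
Scaled signal (log axis, arbitrary units) of the 35 measured members on the NCO (circles), ACO (squares) and ASO (triangles) arrays, 1 array each, with a grey line joining the 3 values of a gene. Plxna4 moves from 3373 on NCO to 5715 on ACO and Dpysl3 from 2932 to 1805, while the 3 symbols of most other members lie close together.

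Of the 35 members, 14 were at least 1.2-fold apart in at least 1 of the 3 comparisons: 8 of 19 semaphorins, 3 of 9 plexins, 1 of 2 neuropilins and 2 of 5 CRMPs. Of all measured genes, 28.6% were so in at least 1 comparison. None was at least 2-fold apart in any comparison, a size reached by 0.0757% of all measured genes for ACO against NCO, 0.257% in ASO against ACO and 0.28% in ASO against NCO. The other 21 members stayed between -0.14 and 0.17 for ACO against NCO, between -0.24 and 0.22 for ASO against ACO and between -0.14 and 0.22 for ASO against NCO. They include Plxna1, Plxna2, Plxna3, Plxnb1, Plxnb3, Plxnd1, Nrp2, Crmp1, Dpysl2, Dpysl4 and 11 semaphorins.

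ACO against NCO sets the peptide-injected mice beside normal controls. The median difference was -0.0006 over the 35 members, against 0.005 over all 13208 measured genes, with 17 members above and 18 below 0, where 51.9% of all genes were above. At least 1.2-fold apart were 4 members, or 4 of 35, where 5.47% of all measured genes were. Plxna4 and Sema4g were higher on ACO, and Dpysl3 and Sema3g were lower. Plxna4 and Dpysl3 were the 2 members past 1.5-fold, a size that 0.416% of all measured genes reached. The family was chosen by these 2 genes in this comparison, so the counts of 4 and 2 include them by that choice. Set beside the shares of all genes, these counts are a description only.

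Plxna4 encodes plexin A4, a receptor that carries signals of Sema3a with neuropilin 1 and binds Sema6a and Sema6b directly. Its probe gave 3373 on NCO, 5715 on ACO and 6462 on ASO. The NCO array was the low one, and the 2 peptide-injected groups lay close to each other. The difference was 0.75 for ACO against NCO (1.68-fold), with a spot error of 0.07, and it ranked number 10 from the top among 13208 genes. It was 0.93 for ASO against NCO (1.90-fold, rank 40) and 0.18 for ASO against ACO. Neighbouring measured spots on the array had a median difference of 0.02 for ACO against NCO but of 0.15 on ASO against ACO and 0.17 against NCO. After correction by those spots the differences were 0.73, 0.03 and 0.76. The authors' deposited table holds this probe with values of 3154.8, 5507.5 and 5806.2, a log2 ratio of 0.80 for ACO against NCO with no constant added. Those values derive from the same spots, so they are not a second measurement. Among the members that table holds Plxna4 and Dpysl3 only. A second Plxna4 probe for the same transcript was below the signal to noise limit on all 3 arrays, with signals of 37.4, 31.8 and 42.6, so no other probe bears on the difference.

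Plexin A1, A2 and A3 are the closest relatives of plexin A4 and share the neuropilin co-receptors. Plxna2 gave 2858, 3059 and 2583 on NCO, ACO and ASO, Plxna3 gave 574, 544 and 592, and Plxna1, a dim probe, gave 120.3, 124 and 118. For ACO against NCO these 3 genes lay between -0.07 and 0.10, and for ASO against NCO between -0.14 and 0.04. Over the 8 plexins without Plxna4 the median was 0.03 for ACO against NCO and -0.01 for ASO against NCO. The highest of these 8 was Plxnc1 at 0.25 in the first and Plxnb2, like Plxna4 lowest on NCO, at 0.30 in the second.

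Dpysl3 encodes CRMP4, which bundles actin, binds microtubules and is abundant in newborn and growing neurons. Its probe gave 2932 on NCO, 1805 on ACO and 2236 on ASO, so NCO was high, ACO low and ASO between them. The difference was -0.68 for ACO against NCO (1.61-fold lower on ACO), with a spot error of 0.07, and it ranked number 15 from the bottom among 13208 genes. ASO was 0.30 above ACO and stood at -0.38 against NCO. With correction by the surrounding spots the value for ASO against NCO was -0.26, just within 1.2-fold, while those for the other comparisons were -0.62 and 0.34. The authors' deposited table gives 2738.8, 1728.6 and 1996.3 for this probe, log2 ratios of -0.66, 0.21 and -0.46 in the same order of comparisons (ACO against NCO, ASO against ACO, ASO against NCO). A second Dpysl3 probe, listed under another transcript accession, was below the signal to noise limit on all arrays, with signals of 27.8, 44.1 and 45.6.

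The other CRMP genes did not follow Dpysl3 in ACO against NCO, where the 4 of them lay between -0.08 and 0.09. Dpysl2, which encodes CRMP2, a family member linked to Sema3a signalling, gave 11022, 11130 and 11168 on NCO, ACO and ASO. Crmp1 gave 6979, 7101 and 6848, and Dpysl4, which encodes CRMP3, gave 6048, 6432 and 5975. These 3 genes differed by at most 0.11 between any 2 arrays. A second Dpysl4 probe stood at 0.07 for ACO against NCO, 0.10 on ASO against ACO and 0.17 against NCO, where the brighter one stood at 0.09, -0.11 and -0.02.

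**Figure D2:**
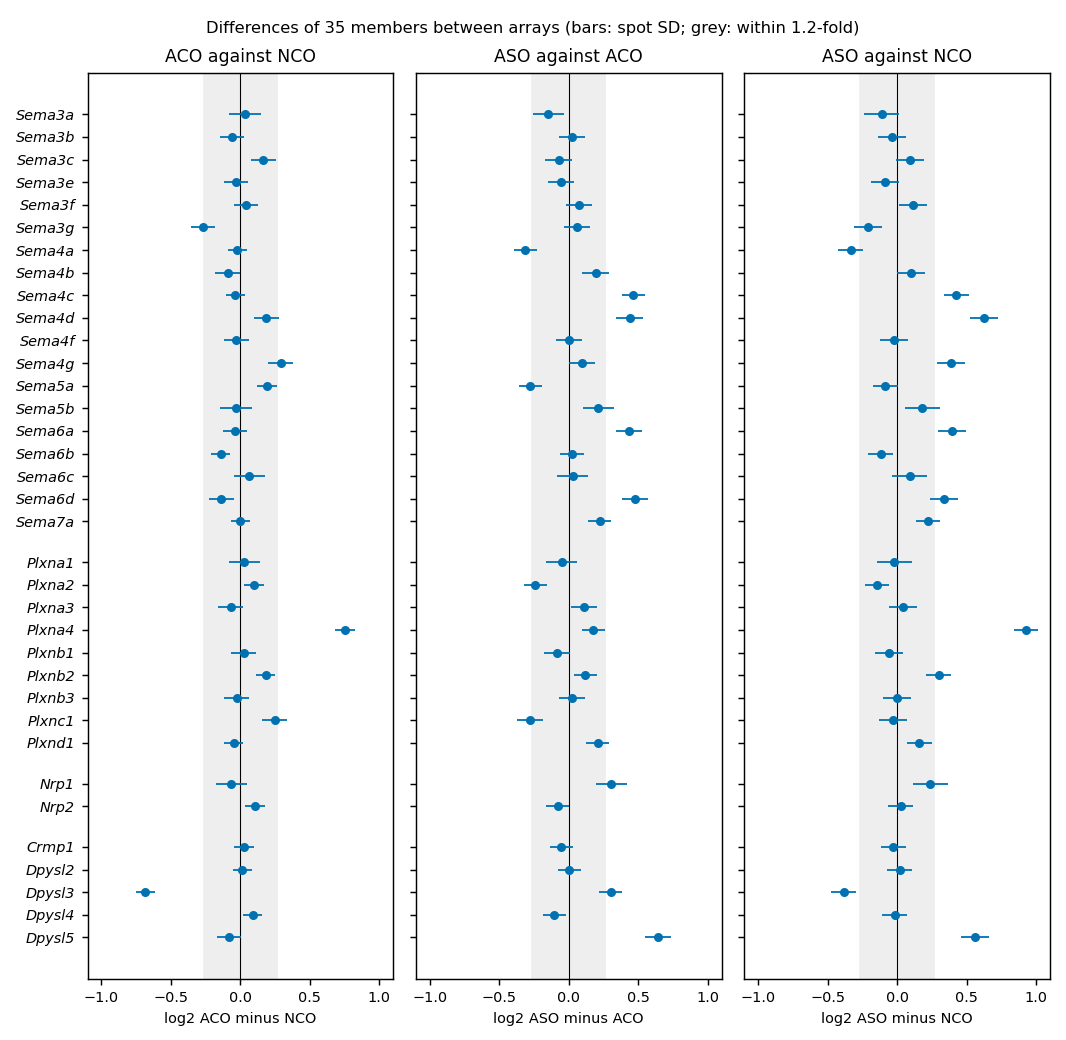
Log2 difference of each measured member in the 3 comparisons (points), with bars of 1 spot SD for probes of like brightness and a grey band for differences within 1.2-fold. Plxna4 stands alone at the right of the plexins at 0.75 and 0.93 against NCO, and Dpysl3 alone at the left of the CRMPs at -0.68 and -0.38.

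Because CRMP4 marks young neurons, markers of immature neurons were set beside it. All 5 (Dcx, Sox11, Igfbpl1, Sox4 and Neurod1) were measured. None was at least 1.2-fold apart in ACO against NCO, where only 5.47% of all measured genes were. Their median was 0.04, with a range from -0.13 to 0.06, and their summed signal was 2004, 2020.1 and 1926 on NCO, ACO and ASO. Dcx, the microtubule-associated protein of migrating neurons, gave 449.99, 438 and 407. In a tissue pool fewer cells of a type and less RNA per cell cannot be told apart. The part of young neurons in the Dpysl3 value was not tested.

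Sema4g and Sema3g were the 2 semaphorins at least 1.2-fold apart in ACO against NCO. Sema4g, a transmembrane class 4 ligand that binds plexin B2, gave 382 on NCO, 478 on ACO and 515 on ASO, with NCO lowest. ACO stood 0.29 and ASO 0.39 above NCO, and ASO stood 0.10 above ACO. Sema3g, a secreted ligand made by endothelial cells that acts through neuropilin 2, gave 328, 263 and 276, with NCO highest, and stood at -0.27 for ACO against NCO. Both calls for ACO against NCO ended with spot means in place of medians (0.13 and -0.20) and with correction by the surrounding spots (0.23 and -0.17). The Sema3g probe used had no match to that symbol in RefSeq. A second Sema3g probe, which had one and is listed under another transcript accession, was below the signal to noise limit on all arrays. Its signals were 21.4, 23.2 and 27.8, so no other probe bears on the Sema3g difference. Endothelial markers were on the same side as Sema3g in ACO against NCO, with 4 of 6 measured, all 4 below 0 and a median of -0.12. None was at least 1.2-fold apart, beside 5.47% of all measured genes. Their summed signal was 7082, 6645 and 6957 on NCO, ACO and ASO, and Pecam1 and Tek were not measured. Markers of oligodendrocyte precursors were also below 0 in 4 of 4. In ASO against NCO Sema3g stood at -0.21 and the endothelial median at 0.01, with 2 of 4 markers above 0. The part of these cell types in the Sema3g value was not tested.

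Choroid plexus markers had the median farthest from 0 among the marker lists in ACO against NCO, at 0.53, with Kcne2 at 0.61. At least 1.2-fold higher on ACO were 7 of 8, where 2.78% of all measured genes were. Ttr, whose probe carries most of the list's summed signal, was at -0.46, and that sum was 23932, 20109 and 20264 on NCO, ACO and ASO. Oligodendrocyte markers were lower on ACO in 7 of 7, with a median of -0.19 and summed signals of 75942, 66936 and 78386. Their part in the values of Plxna4, Dpysl3 and Sema4g was not tested. Plxnb3, the plexin known from oligodendrocytes, gave 859, 842 and 858 and lay within 0.03 of 0 in each comparison.

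**Figure D3:**
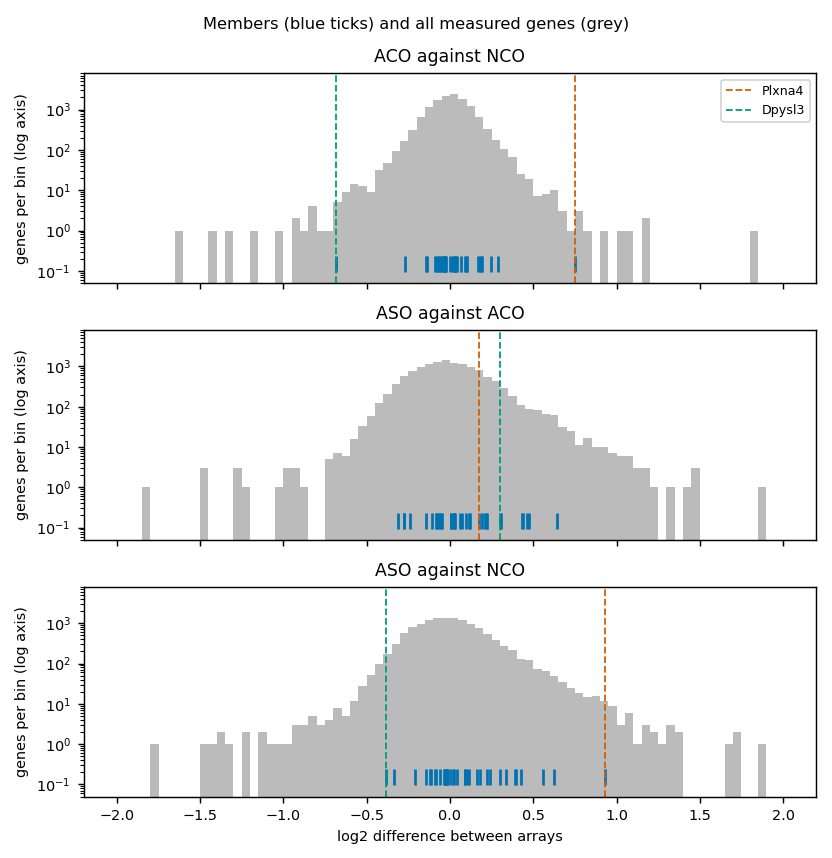
Histograms (log axis, bins of log2 difference) of all 13208 measured genes in the 3 comparisons, with the 35 members as blue ticks and Plxna4 and Dpysl3 as dashed lines. In ACO against NCO both lines lie in the thin tails at 0.75 and -0.68, and in ASO against ACO, where the whole histogram is wider, both lie at its right shoulder at 0.18 and 0.30.

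ASO against ACO sets the oil beside water by mouth in peptide-injected mice. Sema4c, Sema4d, Sema6a, Sema6d, Nrp1 and the CRMP genes Dpysl5 and Dpysl3 were higher on the ASO array by 1.2-fold or more, and Sema4a, Sema5a and Plxnc1 were lower by as much. These are 2 higher and 1 lower of 6 class 4 semaphorins and 2 higher of 4 in class 6. Of the 35 members, 10 were at least 1.2-fold apart, 7 higher and 3 lower, where 19.6% of all measured genes were apart, 10.1% higher and 9.44% lower. The median over the members was 0.03, against -0.02 over all genes, and 23 of 35 were above 0, where 46.6% of all genes were. Spike-in control probes were brighter on the ASO array by 0.50 against ACO and 0.36 against NCO (medians over 5 probes), and their part in the members' values was not tested.

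Dpysl5 encodes CRMP5, a family member that restrains neurite outgrowth and is best known from developing brain. It gave 507 on NCO, 476 on ACO and 772 on ASO, with ASO standing above the other 2. The difference was 0.64 for ASO against ACO (1.56-fold) and 0.56 for ASO against NCO, with spot errors of 0.09 and 0.10. It was the only member past 1.5-fold in ASO against ACO, a size that 1.93% of all measured genes reached. The spots around it stood at 0.15 and 0.18, and correction by them gave 0.50 and 0.38. A second Dpysl5 probe was dim and missed the signal to noise limit on NCO and ACO. It gave 36.3, 29.9 and 43.6 on NCO, ACO and ASO, with 0.23 for ASO against ACO. Immature neuron markers stood at a median of -0.06 in ASO against ACO with 1 of 5 above 0, and their part in the Dpysl5 value was not tested.

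Among class 4 semaphorins, transmembrane ligands of B-type plexins, Sema4c and Sema4d were higher on ASO. Sema4d, a ligand of plexin B1 made by oligodendrocytes and immune cells, gave 239, 279 and 396 on NCO, ACO and ASO, with ASO highest and NCO lowest. It stood at 0.44 on ASO against ACO and 0.62 against NCO (0.58 after correction by the surrounding spots). Sema4c, a ligand of plexin B2 that sits at synapses, gave 2839.5 on NCO, 2766 on ACO and 3832 on ASO, with differences of 0.46 on ASO against ACO and 0.43 against NCO. Sema4a went the other way, at 1939.85, 1909 and 1528, with -0.31 on ASO against ACO and -0.33 against NCO. Its calls ended with spot means, at -0.16 and -0.24, and with correction by the surrounding spots, at -0.20 in both. Sema4b and Sema4f stayed within 1.2-fold throughout.

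Plexins B1 and B2 are receptors of these ligands. Plxnb2 gave 2950.1 on NCO, 3352 on ACO and 3642 on ASO, with 0.12 on ASO against ACO and 0.30 against NCO. With spot means its value against ACO was 0.27, past 1.2-fold. Plxnb1 gave 509.5, 519 and 487 and lay between -0.08 and 0.02 in the 3 comparisons. Microglial and oligodendrocyte markers, from cell types that make Sema4d, were set beside it. Of 8 microglial markers 5 were at least 1.2-fold higher and 1 lower on ASO than on ACO, with a median of 0.30. The shares of all measured genes were 10.1% higher and 9.44% lower. Summed microglial signals were 31289, 26888 and 32485 on NCO, ACO and ASO, of which Itgam alone gave 8521, 3760 and 4790. In ACO against NCO the microglial median was -0.0003, with 4 of 8 above 0. In ASO against ACO 6 of 7 oligodendrocyte markers were above 0, 1 of them at least 1.2-fold higher, with a median of 0.11. Their part in the Sema4d and Plxnb2 values was not tested.

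Class 6 semaphorins are transmembrane ligands that bind plexins A1, A2 and A4 and keep mossy fibres out of the wrong layers. All 4 were above 0 in ASO against ACO, 2 of them by at least 1.2-fold. The other 2, Sema6b at 0.02 and Sema6c at 0.03, lay within their spot errors of 0.08 and 0.11. Over the processing settings Sema6c went as low as -0.13. Sema6d gave 232, 206 and 306 on NCO, ACO and ASO, and Sema6a gave 401, 389 and 543, so ASO was highest for both. Their differences against ACO were 0.47 and 0.43, and against NCO 0.34 and 0.39. With spot means they were within 1.2-fold in both, at 0.16 for Sema6d and 0.23 for Sema6a against ACO, and correction by the surrounding spots brought them to 0.22 and 0.20 against NCO. A second Sema6d probe for the same transcript was dim and missed the signal to noise limit on NCO and ACO. Its signals were 43.8, 37.5 and 57.5, with 0.30 for ASO against ACO. Sema6b gave 2425, 2194 and 2231 and Sema6c gave 174, 184 and 188, both within 1.2-fold in each comparison.

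The remaining calls in ASO against ACO concerned Nrp1, Plxnc1 and Sema5a. Nrp1, the co-receptor for Sema3a and for VEGF, gave 129.9, 122 and 163, a dim probe with 0.31 for ASO against ACO that was at 0.02 with spot means and 0.26 with quantile normalization. Plxnc1, the receptor of Sema7a, was highest on ACO, at 623, 748 and 609, with 0.25 for ACO against NCO, just under 1.2-fold, and -0.28 for ASO against ACO. Sema5a, which limits synapse number on granule cells, was likewise highest on ACO, at 3921, 4482 and 3693, with 0.19 for ACO against NCO and -0.28 for ASO against ACO. With spot means the values for ASO against ACO were -0.14 and -0.20, within 1.2-fold, and correction by the surrounding spots gave -0.33 and -0.37. With quantile normalization Sema5a was at -0.26, just within 1.2-fold. A second Plxnc1 probe for the same transcript was dim and missed the signal to noise limit on ACO, with signals of 43.8, 35.6 and 51.5. This probe was lowest on ACO, at -0.13 for ACO against NCO and 0.25 for ASO against ACO, opposite in sign to the brighter one. Sema7a, a lipid-anchored ligand, gave 4694, 4692 and 5489, a difference of 0.22 for ASO against ACO that grew to 0.38 with spot means. Dentate granule cell markers, set beside Sema5a, were lower on ASO than on ACO in 4 of 4, with a median of -0.29 and summed signals of 2322, 2552 and 1923, and their part was not tested.

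Of the 6 measured class 3 semaphorins, which are secreted, 5 stayed within 1.2-fold between arrays, Sema3g being the exception. Sema3a, the classic repellent for Nrp1 and plexin A receptors, gave 65.03, 67.8 and 56.5 on NCO, ACO and ASO. This dim probe stood at -0.15 for ASO against ACO, and at -0.34, past 1.2-fold, with spot means. Sema3f, which acts through Nrp2 and plexin A3 and limits spines, gave 484, 499 and 528. Sema3b, Sema3c and Sema3e gave signals of 291 to 424 and differences of -0.09 to 0.17. Nrp2 gave 3298, 3550.4 and 3359.5 (0.10 for ACO against NCO and -0.08 for ASO against ACO), and its second measured probe, listed under another transcript accession, gave 689, 809 and 889.7, with 0.35 for ASO against NCO where the brighter probe stood at 0.03.

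ASO against NCO sets peptide and oil together beside normal controls. Of the 35 members, 8 were at least 1.2-fold higher and 2 lower, where 10.3% of all measured genes were higher and 8.39% lower. The higher genes were Plxna4, Sema4d, Dpysl5, Sema4c, Sema6a, Sema4g, Sema6d and Plxnb2, and the lower ones Dpysl3 and Sema4a. Plxna4, by which the family was chosen, and Sema4d were past 1.5-fold, as 2.03% of all measured genes were. The median over the members was 0.03, against -0.02 over all genes, and 19 of 35 were above 0, where 46.9% of all genes were.

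Ligands were also set beside their receptors. Where Plxna4 stood at 0.75 for ACO against NCO, Sema3a stood at 0.03, Sema6a at -0.04, Sema6b at -0.14 and the co-receptor Nrp1 at -0.07. Against NCO, ASO stood at 0.93 for Plxna4, -0.11 for Sema3a, 0.39 for Sema6a, -0.12 for Sema6b and 0.24 for Nrp1. For plexin B2, at 0.18 in ACO against NCO, the ligands Sema4c and Sema4g stood at -0.04 and 0.29. In the same comparison plexin D1 and its ligand Sema3e stood at -0.05 and -0.03, and a second Plxnd1 probe stood at -0.14.

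**Figure D4:**
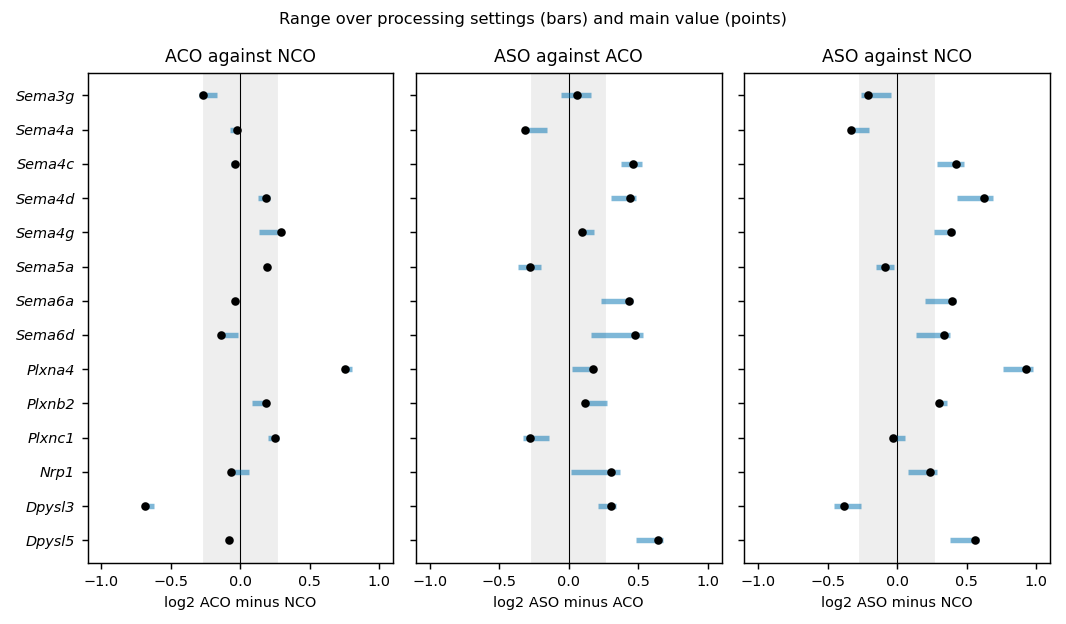
Main log2 difference (black points) and lowest to highest value over the processing settings (blue bars) for the 14 members at least 1.2-fold apart in any comparison, with a grey band for differences within 1.2-fold. Plxna4 keeps between 0.73 and 0.80 and Dpysl3 between -0.70 and -0.62 in ACO against NCO, while the bars of Sema6d, Sema4a and Nrp1 reach into the band in ASO against ACO.

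Signalling partners of the family were read from a list of 44 genes, of which 38 were measured. In ACO against NCO 4 were at least 1.2-fold higher and 1 lower, beside 2.78% and 2.7% of all measured genes. The farthest from 0 were Arhgef12, whose protein is bound by B-type plexins, at 0.47, with signals of 3687, 5134 and 4384 on NCO, ACO and ASO, then Mical2, an actin-oxidising enzyme, at 0.36, and Dyrk2, a kinase that primes CRMPs for Gsk3b, at 0.35. In ASO against ACO 3 were higher and 2 lower, 5 of 38 where 19.6% of all measured genes were apart. Fes, a tyrosine kinase bound by plexins and CRMPs, was at 0.58, with 199, 207 and 336, followed by Arhgef11 at -0.35 and Chl1, an adhesion molecule that associates with neuropilin 1, at -0.33. In ASO against NCO, Fes stood at 0.63, Chl1 at -0.37 and Cfl1, the gene of an actin-severing protein, at 0.36. The CRMP kinase genes Cdk5 and Gsk3b lay within 1.2-fold in each comparison, at 4535, 4228 and 4782 and at 6928, 6628 and 6769.5. The list's median was -0.03 between ACO and NCO, 0.01 between ASO and ACO and 0.003 between ASO and NCO.

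Other guidance families (ephrins, Eph receptors, netrins, slits and their receptors) gave 36 measured genes of 43. In ACO against NCO 2 were at least 1.2-fold higher and 1 lower, 3 of 36 beside 5.47% of all measured genes. The 3 farthest from 0 were Dcc, a netrin receptor, at -0.31, Rgma at 0.29 and Efna1 at 0.27. Against ACO, 4 were higher and 4 lower on ASO, 8 of 36 beside 19.6% of all measured genes, led by Epha7 at -0.53, Epha4 at -0.37 and Slit3 at 0.36. Against NCO, ASO stood farthest in Slit2, at 0.49, Epha7, at -0.40, and in Efna5, at -0.32. The medians of the 36 genes lay between -0.02 and 0.007.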

How the data were processed

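Hippocampal RNA of 3 groups, 1 pool of 10 mice each, was measured on 3 one-colour arrays. Per the file headers, the authors deposited GenePix Pro 6.1.0.4 output of a GenePix 4000B scan at 532 nm, with spot intensity and local background not normalized. Per the file headers, a signal to noise score and the percent of saturated pixels accompany each spot. The submitters' processing notes name Agilent Feature Extraction, whose columns were not found in these files. The authors' deposited value table holds intensity for 475 probes, each column a straight line of the foreground median. Its medians are 116.8, 97.4 and 113.3 for NCO, ACO and ASO. It is linear, uncentred and rises with signal, and the reason for its slopes of 1, 0.917 and 0.893 is unknown.

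Median intensities were background-corrected with normexp (limma 3.58.1, R 4.3.3) on all spots and scaled to a common 75th percentile. A constant of 50 was added, log2 was taken and spots of a probe were averaged (Python 3.11.15, numpy 2.4.6, pandas 2.3.3). Probes at a score of at least 2.6 on all 3 arrays, not saturated in 50% of pixels on all arrays and not marked bad were kept. Gene names are those of the array files. The accessions of 46 of the 49 member probes matched the same symbol in RefSeq (GRCm38.p6). The array files name no genome build, so no coordinates are printed. Values of the surrounding spots are medians of differences in a window of 15 columns and rows.

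No test was run, since each group has a single array. Genes named are Plxna4, Dpysl3, members at least 1.2-fold apart and the 2 genes of each family with the brightest probes (a rule for naming, not a ranking of RNA). Members with 2 measured probes at least 0.5 apart (none) and the 3 genes of each other list farthest from 0 are named as well. Second probes that missed the score limit on any array, as for Plxna4, Dpysl3, Dpysl5, Sema6d and Plxnc1, did not count in this rule on probes. Other members are named for their family. The members and lists were chosen with earlier results of these data known. The steps were tested on simulated data. Alternatives were spot means, plain subtraction, a constant of 16, quantile normalization, median scaling, no score filter, a score of at least 5, the mean over probes, correction by surrounding spots and the authors' table.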

Additional observations from a re-analysis of the deposited data

How the results depend on the processing

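Counts of members at least 1.2-fold apart were 4, 10 and 10 for ACO against NCO, ASO against ACO and ASO against NCO. With spot means the first count was 2, and with correction by surrounding spots the last was 6, without Dpysl3, Sema4a, Sema6a and Sema6d. Spot means kept 4 of the 10 members in ASO against ACO. No direction of a called member turned, and no scaling moved the median of all genes by over 0.1. Under the 9 alternatives other than the authors' table, those past 1.2-fold throughout were Plxna4 and Dpysl3 for ACO against NCO, Dpysl5, Sema4c, Sema4d and Dpysl3 for ASO against ACO, and Plxna4, Sema4d, Dpysl5, Sema4c, Sema4g and Plxnb2 for ASO against NCO. The authors' table put Dpysl3 at 0.21 in ASO against ACO, under 1.2-fold. The cause was not tested. No paired analysis was possible because each group has 1 array. Single spots limit dim members such as Sema3a and Nrp1 most.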

Other observations

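A probe described as Sema6c in the array files, without a gene name there and so outside the rule, gave 865, 815 and 923 on NCO, ACO and ASO. It stood at -0.08 for ACO against NCO and 0.17 for ASO against ACO, where the named Sema6c probe stood at 0.06 and 0.03. A like probe for Sema5b gave 65.0, 76.4 and 57.5, with 0.14 for ACO against NCO and -0.23 for ASO against ACO. The 2 measured Sema5b probes that carry the name stood at 0.21 and -0.12 in the latter comparison, so the Sema5b probes did not share a direction.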
